A study of Mus musculus with 9 samples.

Results

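Cultured mouse preSC carrying a retrovirus for L-Myc were compared with preSC carrying a retrovirus for N-Myc. Per the labels, preSC are preneoplastic neuroendocrine cells grown out of mouse lung after an adenovirus that delivers the Cre recombinase, Adeno-Cre, had removed the conditional alleles for Rb, p53 and p130. The deletions were thus common to the controls and to every transduced group, as were the mixed C57BL/6 and 129/Sv background and the culture in RPMI1640 with 10% bovine growth serum. The comparison uses 4 of the 9 arrays of the series, 2 titled L-Myc-preSC and 2 titled N-Myc-preSC, with 1 probe set for each gene, the one with the highest mean over all 9 arrays. The 2 C-Myc arrays and the 3 arrays of untransduced preSC serve as reference points. The molecule label differs between the groups: polyA RNA is given for L-Myc and for preSC, and total RNA for N-Myc and for C-Myc, although the extraction and labelling text is the same for all. An effect of that difference cannot be told apart from the effect of the virus. The labels describe the L-Myc cells as having undergone transformation. They do not say whether the 2 arrays of a group came from separate infections or clones, so the statistics measure the spread between these arrays, which may be technical.

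L-Myc, N-Myc and C-Myc are paralogous transcription factors of the MYC family, encoded by Mycl, Mycn and Myc. Each dimerises with MAX and binds E-boxes, of which CACGTG is the canonical form. The family is best known for driving genes of ribosome assembly, nucleotide synthesis, glycolysis and cell division, and a member is often amplified in small cell lung cancer, the neuroendocrine tumour for which preSC serve as a model of the precursor.

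All values are RMA values on the log2 scale, so a difference of 1 is a doubling, and values of different probe sets are not compared with each other. The cells carried the neuroendocrine identity of their label on every array: each of the 13 measured neuroendocrine markers exceeded the 40th percentile of its array in all 9 arrays, and their mean level lay between 10.50 and 11.24. Mean levels of the fibroblast, endothelial, leukocyte and other lung epithelial lists lay between 4.94 and 6.20, close to the array medians of 6.02 to 6.07. Single members could be high. Lyz2 of the leukocyte list, chosen after its values were seen, read from 5.61 in preSC 3 to 12.31 in C-Myc 1, and Sftpc is given below. In the bulk RNA of a culture, fewer cells of a type and less RNA per cell cannot be told apart. The 3 probe sets for 18S ribosomal RNA, averaged, read 8.22 and 9.35 in the L-Myc arrays and 9.29 and 8.40 in the N-Myc arrays. These groups overlapped although their molecule labels differ, whereas preSC, labelled as L-Myc, read 12.88 to 13.91. preSC also stood apart from all 6 transduced arrays in the 5′ minus 3′ difference of the control probe sets: it was -0.62 to -0.85 against -0.20 to -0.31 for Actb, -3.40 to -3.66 against -1.51 to -1.68 for the Dap spike-in and -2.59 to -3.17 against -1.37 to -1.61 for the Thr spike-in. The part of these differences in the comparisons with preSC was not tested.

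The arrays differed in how much they had in common. The 2 N-Myc arrays were close to each other, with 13 of 45101 probe sets more than 2-fold apart, while 2252 probe sets separated the 2 L-Myc arrays. Among the preSC arrays, preSC 1 and preSC 2 differed at 47 probe sets, and preSC 3 stood apart from them, at 1909 and 1807. Between an L-Myc and an N-Myc array, 2560 to 3151 probe sets differed more than 2-fold. The C-Myc arrays stood on opposite sides: C-Myc 2 differed from L-Myc 2 at 41 probe sets, C-Myc 1 differed from N-Myc 1 at 194 and from N-Myc 2 at 182, and C-Myc 1 and C-Myc 2 differed from each other at 3035. The 2 C-Myc arrays carry the same label. Their difference is therefore set below beside many, though not all, comparisons of the L-Myc with the N-Myc group.

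The genes for the introduced proteins were read first. Mycl has 3 probe sets, and the second brightest set the groups apart: it read 11.79 and 12.74 in the L-Myc arrays, 6.98 and 7.24 in the N-Myc arrays and 5.39 to 5.74 in preSC, a difference of 5.16 (SE 0.55) or 35.7-fold. The brightest Mycl probe set read 8.56 and 8.78 against 8.21 and 8.19, and the dimmest 6.74 and 7.24 against 6.41 and 6.43. A clear excess of L-Myc over N-Myc was thus seen by 1 of 3 probe sets, and there in both L-Myc arrays. On the dimmest probe set preSC read 4.66 to 4.75, below all 6 transduced arrays, and on the brightest 8.65 to 9.03.

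Mycn also depended on the probe set. The dimmest read 9.05 and 8.46 in the N-Myc arrays, against 6.24 and 6.08 in the L-Myc arrays, 5.83 and 5.79 in the C-Myc arrays and 6.05 to 6.39 in preSC. Only the N-Myc arrays were raised on it, by 2.59 (SE 0.22) over L-Myc. In the limma fit over all 9 arrays its adjusted p, over 29201 probe sets, was 0.0876. The brightest Mycn probe set ran the other way: it read 12.92 and 13.33 in the L-Myc arrays and 13.54 and 13.08 in the C-Myc arrays, above 11.64 and 11.07 in the N-Myc arrays. All 6 transduced arrays lay far above preSC on that probe set (6.37 to 6.89). The middle one read 8.02 and 6.86 in L-Myc and 5.62 and 5.47 in N-Myc. Which part of the transcript each probe set covers was not analysed here.

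Myc, for which the array has 1 named probe set, was low in the L-Myc arrays (5.63 and 7.29) and high in the N-Myc arrays (11.96 and 11.40), a 37.4-fold difference. Both N-Myc arrays were above the C-Myc arrays (11.22 and 10.68), and preSC read 6.50, 6.82 and 8.13. The group labelled N-Myc thus carried no less Myc signal than the group labelled C-Myc, while the L-Myc group did not exceed preSC.

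**Figure D1:**
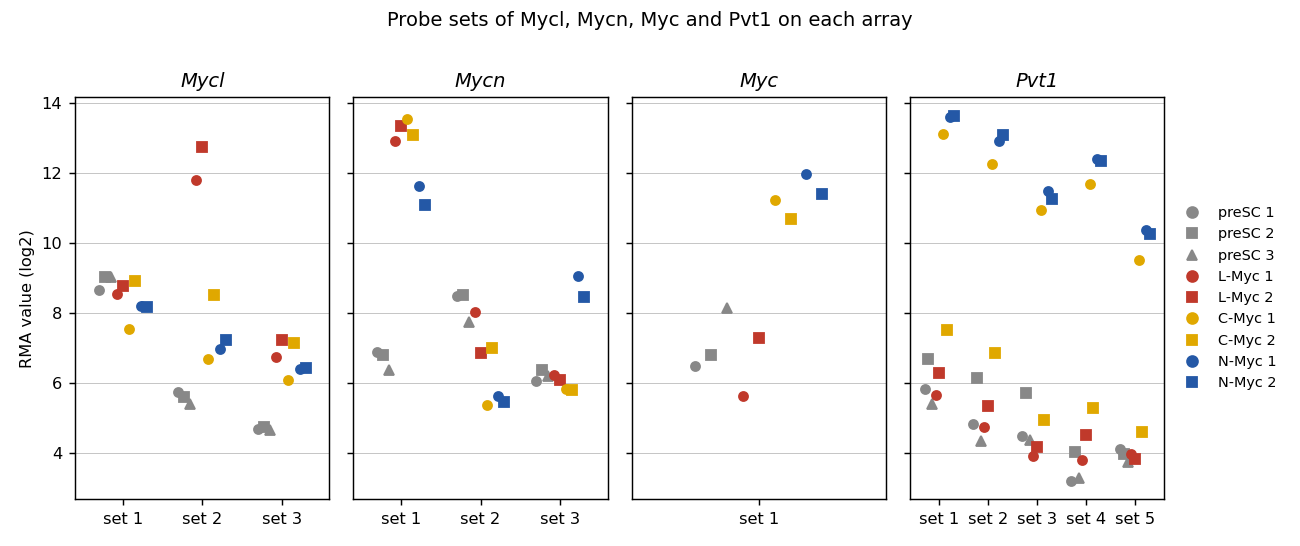
RMA values (log2, vertical axis) of every named probe set of Mycl, Mycn, Myc and the noncoding RNA gene Pvt1 on the 9 arrays, with the probe sets of a gene numbered from the brightest. Colour gives the group and symbol shape the replicate. Mycl set 2 is high in the L-Myc arrays alone, Mycn set 3 in the N-Myc arrays alone, and Myc in the N-Myc and C-Myc arrays, and all 5 Pvt1 sets are high in both N-Myc arrays and in C-Myc 1 but not in C-Myc 2.

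Pvt1, a long noncoding RNA gene next to Myc, showed the largest excess in the N-Myc arrays. It read 5.67 and 6.29 in the L-Myc arrays and 13.58 and 13.63 in the N-Myc arrays, a difference of -7.63 (SE 1.50) or 198-fold. All 5 of its probe sets differed in this direction, by 6.40 to 8.21. C-Myc 1 read 13.11 and C-Myc 2 7.51, so the C-Myc arrays fell apart on it, as they did not on Myc. Other tested genes beside Myc on chromosome 15 were taken in RefSeq order. Lratd2, the next on the other side of Myc, read 8.62 and 9.22 against 13.18 and 12.83. Macroh2a3, beyond Pvt1, had a difference of -1.41, and Trib1, a pseudokinase gene, one of -1.27. C-Myc 1 and C-Myc 2 read 11.64 and 9.27 for Lratd2, and 9.66 and 8.49 for Macroh2a3. For Trib1 they read 8.32 and 8.19, so Trib1 did not split them as Pvt1 did. Gsdmcl2, between Macroh2a3 and Cyrib, had a difference of -0.34. Cyrib overlapped between the groups (11.53 and 11.51 against 11.43 and 11.62), and Nsmce2, on the far side of Trib1, was higher in L-Myc by 0.22. The excess was thus not seen in every tested gene there. 4933412E24Rik, between Trib1 and Lratd2, also overlapped, but it read 6.05 to 6.40 on all 9 arrays, near the array medians, and says little.

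Of the genes deleted in these cells, Rb1 read 11.59 and 10.87 in the L-Myc and 10.77 and 10.45 in the N-Myc arrays on its brighter probe set. Rbl2, which encodes p130, read 8.20 and 7.99 in L-Myc and 7.09 and 7.38 in N-Myc. Where these probe sets lie relative to the deleted exons is not known here, so their levels do not check the deletion.

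Across the transcriptome, 12976 genes were tested. With limma on all 9 arrays, 0 genes (0.0%) passed an adjusted p of 0.05 between L-Myc and N-Myc, and the smallest adjusted p was 0.165. At an unadjusted p under 0.05 there were 2432 genes (18.7%). Without the C-Myc arrays, whose own spread enters that fit, limma called 1131 genes (8.72%), 671 higher in L-Myc (5.17%) and 460 higher in N-Myc (3.55%). That setting was chosen after seeing the data. Leaving out either C-Myc array alone is the same fit for this contrast and no further check. A single array left in a group adds nothing to the spread. Without L-Myc 2 the count was 11, with array weights 670 and on the 4 L-Myc and N-Myc arrays alone 241. An exact permutation test over 2 arrays against 2 cannot give a two-sided p below 0.333, so genes are described below by their values on each array.

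Groups that did not overlap were common: in 7162 genes (55.2%) both arrays of one group lay above both arrays of the other. L-Myc was the higher group in 3294 of them (25.4%) and N-Myc in 3868 (29.8%). These counts need all 4 arrays: without L-Myc 1 there were 10865 such genes and without L-Myc 2 10886. The median difference over all genes was -0.03. With the means at least 2-fold apart as well, 636 genes were higher in L-Myc (4.9%) and 396 higher in N-Myc (3.05%), and these 1032 (7.95%) are called separated below. Wide gaps favoured L-Myc: the lowest L-Myc value exceeded the highest N-Myc value by at least 2 on the log2 scale in 76 genes, and the reverse held in 26. A gap of at least 4 occurred in 10 genes in favour of L-Myc and in 3 in favour of N-Myc, namely Pvt1, Klhl41 and Myc.

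The widest gap in favour of L-Myc belonged to Ctsz, the gene for the lysosomal protease cathepsin Z. It read 12.34 and 11.94 in the L-Myc arrays and 4.20 and 3.97 in the N-Myc arrays, a difference of 8.05 (SE 2.14). preSC read 11.81, 11.84 and 12.27, at the L-Myc level, and so did C-Myc 2, at 11.90. C-Myc 1 read 3.69, so that it and the N-Myc arrays were the ones apart. Phtf2, a gene for a putative homeodomain transcription factor, read 10.39 and 9.91 against 3.06 and 3.13. Alcam, which encodes an immunoglobulin-family adhesion molecule, read 9.37 and 10.70 against 4.91 and 4.70, with C-Myc at 4.91 and 10.52. Lrrn1, encoding a neuronal leucine-rich repeat membrane protein, read 8.85 and 8.91 against 4.23 and 4.23. In all 3, preSC again lay with L-Myc and the groups were separated by more than 4 on the log2 scale.

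Further genes with wide gaps in this direction included Klhl22, an adaptor of a ubiquitin ligase (9.32 and 9.47 against 5.17 and 4.95), and Manea, an endomannosidase of glycan processing (8.40 and 8.72 against 4.01 and 4.25). Lipo3, a lipase gene, read 10.44 and 10.23 against 5.48 and 5.80. Slc6a15, the gene for a neutral amino acid transporter, read 9.55 and 9.89 against 5.34 and 5.39, with preSC between them at 8.40, 8.61 and 8.58. Adgrb3, encoding a brain adhesion G protein-coupled receptor, read 8.36 and 9.74 against 3.37 and 4.13, but its preSC arrays were themselves split (4.99, 5.14 and 10.72).

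Plscr4, encoding a phospholipid scramblase, read 9.77 and 8.51 in L-Myc and 3.88 and 4.08 in N-Myc. It stands in a run of genes on chromosome 9 that were all higher in both L-Myc arrays: Plscr1, another scramblase gene (difference 4.02), Plod2, a collagen lysyl hydroxylase gene (2.51), Dipk2a (2.48) and Slc9a9, a sodium-proton exchanger gene (3.17). Chst2, the next tested gene after Slc9a9, also did not overlap, with a difference of 0.30.

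In favour of N-Myc, Klhl41, a gene known from skeletal muscle, followed Pvt1. It read 5.02 and 5.13 in the L-Myc arrays and 9.86 and 9.97 in the N-Myc arrays, a difference of -4.84 (SE 1.37), and preSC stayed at 4.25, 4.19 and 3.97. Fam169a (4.66 and 4.36 against 8.03 and 8.10) and Pdzrn3, a gene for a ubiquitin ligase with PDZ domains (4.57 and 5.37 against 8.97 and 8.65), showed the same pattern of a high level in N-Myc and a low level in L-Myc and preSC. Wdr66 read 6.61 and 5.60 against 9.29 and 9.50, and Pde11a, a cyclic nucleotide phosphodiesterase gene, 5.06 and 5.05 against 7.80 and 8.02. Smoc2, encoding a matricellular protein, differed in its preSC level: it read 4.97 and 5.11 in L-Myc, 7.85 and 7.85 in N-Myc and 8.82, 8.62 and 8.67 in preSC, so that L-Myc was the group furthest from preSC.

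Some of the N-Myc-higher genes are known from other epithelia. Sftpc, the surfactant protein gene that marks alveolar type II cells, read 7.77 and 6.43 in L-Myc and 10.59 and 11.10 in N-Myc, with preSC at 8.42, 8.27 and 6.06. The rest of the list of 18 club, alveolar and ciliated genes did not go with it: 7 passed the filter, 2 were higher without overlap in each group, and the list's mean level lay between 5.29 and 5.65 on every array. Cdx2, an intestinal homeobox gene, read 5.07 and 4.77 against 8.30 and 7.55. Tph1, encoding the tryptophan hydroxylase of enteroendocrine and other serotonin-making cells, read 4.23 and 5.01 against 7.50 and 7.85. It also belongs to the neuroendocrine granule and peptide list read below, so it is not particular to other epithelia.

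**Figure D2:**
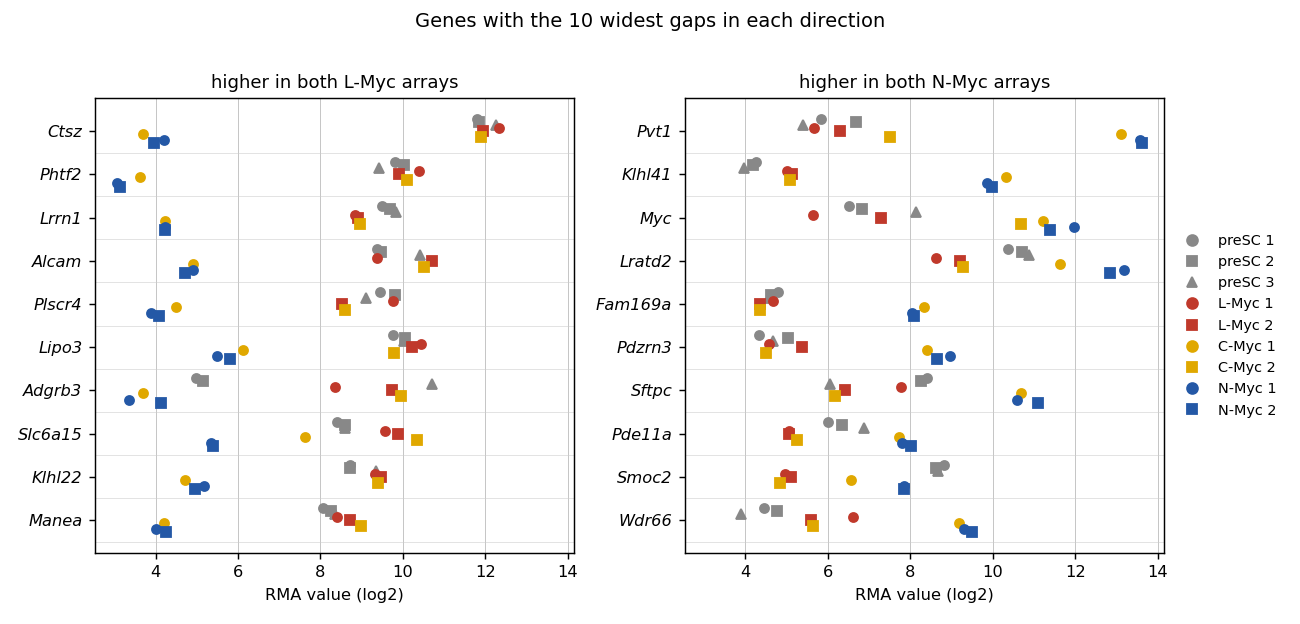
RMA values (log2, horizontal axis) on all 9 arrays of the genes with the 10 widest gaps between the groups in each direction, ordered from the widest. Colour gives the group and symbol shape the replicate. In every row but those of Myc, Slc6a15, Lratd2 and Smoc2, C-Myc 1 (yellow circle) sits by the N-Myc arrays and C-Myc 2 (yellow square) by the L-Myc arrays, and most L-Myc-higher genes have preSC near the L-Myc arrays.

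The separated genes split the C-Myc arrays as well. Of the 1032, 851 (82.5%) had C-Myc 1 on the N-Myc side of the midpoint between the group means and C-Myc 2 on the L-Myc side, against 49.5% of all genes tested. The opposite split occurred in 13. Of the 636 higher in L-Myc, 431 were also at least 2-fold higher in C-Myc 2 than in C-Myc 1, and of the 396 higher in N-Myc, 235 were at least 2-fold lower. Across all 12976 genes, the L-Myc minus N-Myc difference and the C-Myc 2 minus C-Myc 1 difference, which share no array, had a Pearson r of 0.77. This is a description across genes, which are not independent replicates. The C-Myc arrays carry 1 virus label, so a difference of the size seen between L-Myc and N-Myc also occurred between 2 arrays of the same label.

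**Figure D3:**
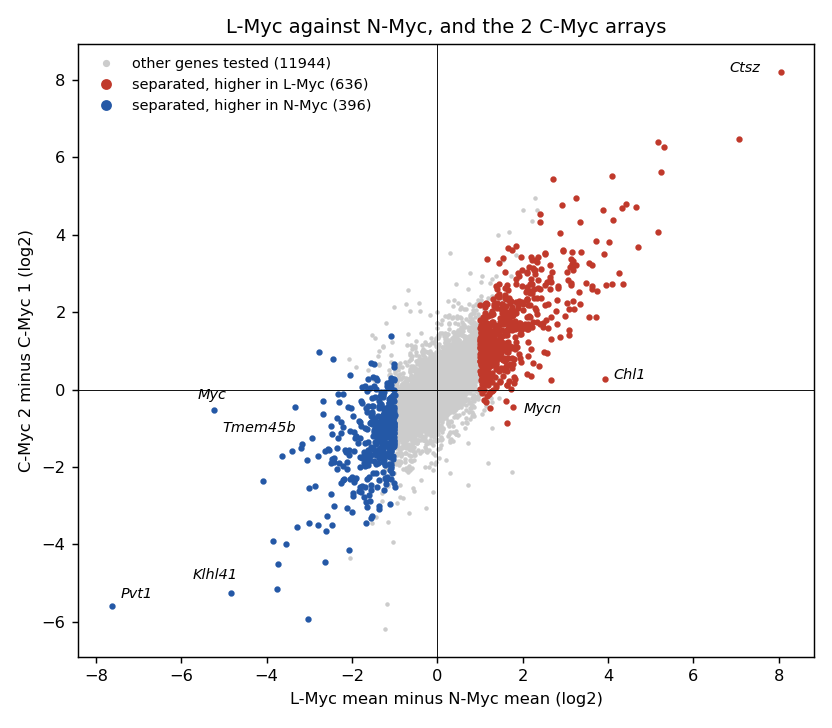
Each point is 1 of the 12976 genes tested, with the L-Myc mean minus the N-Myc mean (log2) on the horizontal axis and C-Myc 2 minus C-Myc 1 (log2) on the vertical axis. Coloured points are the 636 separated genes higher in L-Myc and the 396 higher in N-Myc. Most of them lie along the diagonal, while Myc, Mycn, Chl1 and Tmem45b differ between L-Myc and N-Myc with the C-Myc arrays within 0.6 of each other.

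Against preSC, the 2 directions were not alike. In 449 of the 636 genes higher in L-Myc all 3 preSC arrays lay on the L-Myc side, and in 50 on the N-Myc side. Of the 396 genes higher in N-Myc, preSC lay on the L-Myc side in 184 and on the N-Myc side in 99. For most separated genes higher in L-Myc, preSC thus lay nearer to the L-Myc than to the N-Myc mean, which does not place L-Myc at the preSC level.

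In 68 separated genes higher in L-Myc and 73 higher in N-Myc the C-Myc arrays were within 0.5 of each other. The L-Myc to N-Myc difference thus had no counterpart of its size between them. In some of these genes the C-Myc arrays, though close, still lay on opposite sides of the midpoint between the group means. In 7 of the former and 19 of the latter both C-Myc arrays lay on the L-Myc side, and the N-Myc arrays stood apart. Zfp462, a zinc finger gene, read 9.37 and 8.98 in L-Myc and 7.62 and 7.29 in N-Myc, with C-Myc at 8.95 and 8.96. Itprid2 read 9.69 and 9.17 against 7.92 and 7.69, with C-Myc at 9.02 and 9.14. Pdzrn4, a relative of Pdzrn3, read 7.75 and 7.84 against 6.60 and 6.53, with C-Myc at 7.87 and 7.82. In favour of N-Myc, Ptk2b, the gene for the focal adhesion kinase relative PYK2, read 5.25 and 5.22 against 6.77 and 6.58, with C-Myc at 5.66 and 5.69. S100a16, a calcium-binding protein gene, read 8.72 and 8.37 against 9.76 and 9.99, with C-Myc at 9.13 and 8.96. In limma without the C-Myc arrays the adjusted p was 0.0187 for Zfp462, 0.0185 for Itprid2, 0.0144 for Pdzrn4, 0.00692 for Ptk2b and 0.016 for S100a16. In limma on all 9 arrays the adjusted p was 0.165 for each of them. These 5 were chosen after their values were seen, so their p-values are no separate support.

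In 39 that were higher in L-Myc and 31 higher in N-Myc both C-Myc arrays lay on the N-Myc side of the midpoint. That does not set both L-Myc arrays apart from C-Myc. Here 1 array often carried the difference. Chl1, encoding a neural adhesion molecule, read 9.63 and 5.50 in L-Myc, 3.55 and 3.74 in N-Myc, 3.80 and 4.07 in C-Myc and 9.95, 10.04 and 7.77 in preSC, so that L-Myc 1 alone of the transduced arrays was at a preSC level. Fbln1, the gene for the matrix protein fibulin 1, read 9.33 and 6.89 against 6.04 and 5.78 on its brightest probe set, while on the next it differed by -0.054. Tmem45b read 4.15 and 7.44 against 8.84 and 9.41, with C-Myc at 8.21 and 7.77. Anxa4, an annexin gene, read 6.71 and 9.66 against 10.38 and 10.65, with C-Myc at 9.81 and 9.70, close to L-Myc 2. In each of these 4, chosen in the same way, L-Myc 1 was the extreme array and L-Myc 2 lay within 2 of the nearest N-Myc array.

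Gene position marked the comparison. Over the 732 tested genes of chromosome 9 the median L-Myc minus N-Myc difference was 0.53, and over the 450 of chromosome 19 it was also 0.53, while the median of every other chromosome lay between -0.16 (chromosome 15) and 0.08 (chromosome X). On chromosome 9, 68.2% of the genes were higher in L-Myc without overlap and 8.2% higher in N-Myc; on chromosome 19 these shares were 67.6% and 7.56%. Elsewhere they were 21.1% and 32.0%. Relative to the preSC mean, the chromosome 9 median was -0.07 and -0.13 in the L-Myc arrays and -0.64 and -0.65 in the N-Myc arrays. For chromosome 19 the values were 0.03 and -0.02 in L-Myc and -0.46 and -0.48 in N-Myc. C-Myc 1 was low like N-Myc, at -0.58 and -0.51, and C-Myc 2 lay with L-Myc, at -0.14 and -0.02.

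The shift ran along both chromosomes. With the tested genes of each chromosome divided by their order into 10 equal stretches, the median difference lay between 0.32 and 0.78 in the stretches of chromosome 9. On chromosome 19 it lay between 0.42 and 0.67. DNA copy number was not measured here. Chromosomes 9 and 19 held 9.11% of the genes tested but 199 of the 636 separated genes higher in L-Myc (31.3%), and 4 of the 396 higher in N-Myc. Plscr4, Plscr1 and Slc9a9 on chromosome 9 and Lipo3 on chromosome 19 are among them, with differences well beyond the chromosome median. The other 437 separated genes higher in L-Myc, Ctsz, Phtf2, Alcam and Lrrn1 included, lie elsewhere.

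**Figure D4:**
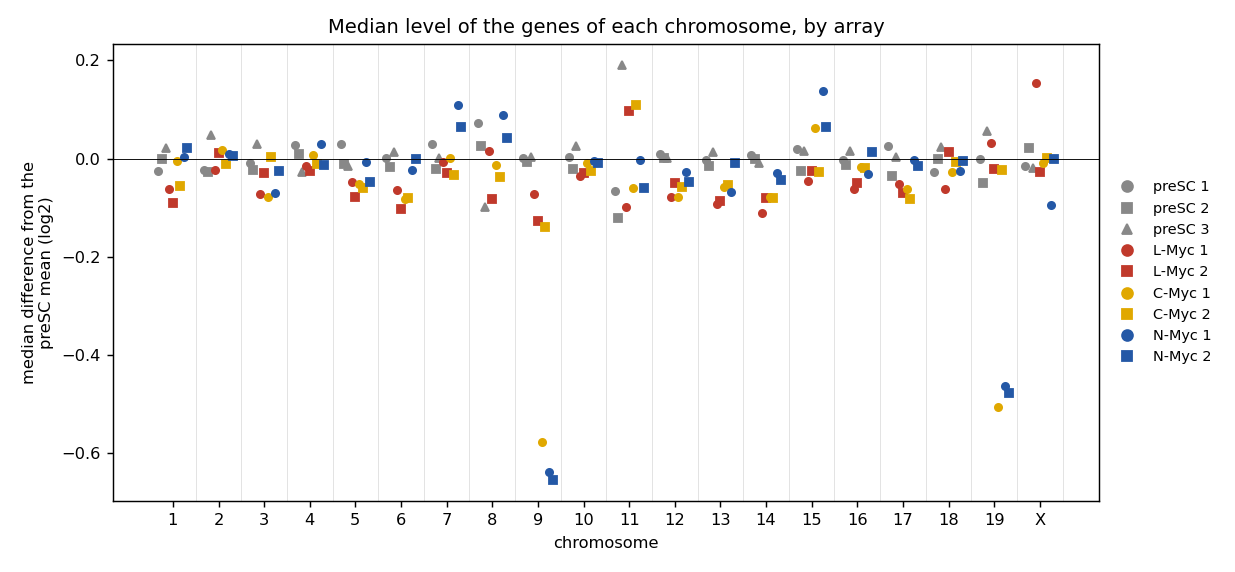
Median difference from the mean of the 3 preSC arrays (log2, vertical axis) over the tested genes of each chromosome (horizontal axis), for each array. Colour gives the group and symbol shape the replicate. On chromosomes 9 and 19 both N-Myc arrays and C-Myc 1 lie between -0.65 and -0.46, and the L-Myc arrays, C-Myc 2 and preSC lie near 0.

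Gene lists were read by their counts of genes without overlap, against 25.4% higher in L-Myc and 29.8% higher in N-Myc over all genes tested. 0 of their members passed the 9-array test. Most genes named from them have the largest differences of their list without overlap, and the others were chosen after their values were seen. Ribosome biogenesis, the assembly of ribosomal subunits in the nucleolus, had the highest share of members higher in N-Myc of the 48 lists. Of 94 tested genes, 65 were higher in N-Myc without overlap (69.1%) and 7 higher in L-Myc, with a median difference of -0.50. It was -0.58 between C-Myc 2 and C-Myc 1. Nol9, a kinase of ribosomal RNA processing, read 6.33 and 6.76 in L-Myc and 8.44 and 8.27 in N-Myc. Noc2l, a nucleolar protein gene, read 7.27 and 7.68 against 9.41 and 9.13. Heatr1, a component of the small subunit processome, read 8.46 and 8.57 against 9.75 and 9.67. For the abundant nucleolar factors Ncl, Fbl and Npm1, the nucleolin, fibrillarin and nucleophosmin genes, the differences were -0.52, -0.60 and -0.66. C-Myc 1 exceeded both L-Myc arrays in all 6 of these genes, and preSC lay below both L-Myc arrays in all of them but Heatr1.

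The canonical E-box CACGTG, which reads the same on both strands, was searched in the 250 bases before each RefSeq start (build GRCm38.p6). It was present for 9.81% of the 10442 tested genes with a window and for 6 of 79 ribosome biogenesis genes (7.59%). It was present for 10.5% of the separated genes higher in L-Myc and 10.2% of those higher in N-Myc, so these shares were near that of all genes tested. The 3 windows of ribosome biogenesis genes higher in N-Myc that hold the motif are printed to show where it lies, 5′ to 3′ with the motif in capitals and the last base next to the start. They belong to Wdr46 (chr17:33940473-33940722, plus strand, difference -1.06), Imp4 (chr1:34439579-34439828, plus strand, -1.01) and Nop2 (chr6:125131633-125131882, plus strand, -0.80), all factors of ribosomal RNA processing.
Wdr46: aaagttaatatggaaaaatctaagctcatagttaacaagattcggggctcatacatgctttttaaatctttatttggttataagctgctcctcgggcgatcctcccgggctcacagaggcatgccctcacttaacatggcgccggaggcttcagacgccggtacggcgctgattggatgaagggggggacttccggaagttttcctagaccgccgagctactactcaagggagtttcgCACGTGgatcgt
Imp4: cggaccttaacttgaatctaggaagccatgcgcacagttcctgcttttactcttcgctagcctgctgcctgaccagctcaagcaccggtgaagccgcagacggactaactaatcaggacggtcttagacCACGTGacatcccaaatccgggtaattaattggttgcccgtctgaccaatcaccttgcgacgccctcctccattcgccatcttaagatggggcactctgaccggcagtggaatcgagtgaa
Nop2: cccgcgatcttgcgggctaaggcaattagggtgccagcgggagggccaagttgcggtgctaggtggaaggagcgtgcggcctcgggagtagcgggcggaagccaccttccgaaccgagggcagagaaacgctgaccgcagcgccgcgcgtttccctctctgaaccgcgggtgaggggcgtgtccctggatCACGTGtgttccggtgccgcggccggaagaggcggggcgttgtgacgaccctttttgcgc
The motif begins 12 bases before the start of Wdr46, 121 before that of Imp4 and 60 before that of Nop2. A match is a description of the letters and not a binding site.

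RNA polymerase I and III, which transcribe ribosomal and transfer RNA, showed the same lean, with 21 of 35 genes higher in N-Myc without overlap and 4 higher in L-Myc. The median was -0.27, and -0.33 between C-Myc 2 and C-Myc 1. Polr1b, a subunit gene of polymerase I, read 7.15 and 7.20 against 8.42 and 8.14, and Polr3g, of polymerase III, 5.33 and 6.01 against 6.97 and 7.17. Aminoacyl-tRNA synthetases had 19 of 36 higher in N-Myc and 4 in L-Myc, and translation factors 22 of 47 and 5. The medians were -0.19 and -0.18, and between C-Myc 2 and C-Myc 1 they were -0.45 and -0.24. Cholesterol synthesis had 14 of 21 higher in N-Myc and 2 in L-Myc, and both of the latter lie on chromosome 19 or 9. Its median was -0.29, and -0.64 between C-Myc 2 and C-Myc 1. Cytosolic ribosomal protein genes had 57.1% of the list measured, and that list is not read.

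Glycolysis and the pentose phosphate pathway had 16 of 28 genes higher in N-Myc without overlap and 5 higher in L-Myc, at a median of -0.48. Pgd, encoding 6-phosphogluconate dehydrogenase, read 8.28 and 8.23 in L-Myc and 10.01 and 9.93 in N-Myc. Aldoa, the aldolase A gene, read 10.42 and 10.46 against 12.12 and 11.98, and Pfkl, encoding liver-type phosphofructokinase, 8.77 and 9.09 against 10.55 and 10.21. The L-Myc arrays lay below preSC for Pgd and Aldoa (9.08, 9.02 and 8.94 and 11.08, 10.81 and 10.87) and above preSC for Pfkl (7.43, 6.87 and 7.28). The median between C-Myc 2 and C-Myc 1 was -0.54. Respiratory chain genes did not lean: 18 of 66 were higher in L-Myc and 20 in N-Myc, and 9 of the 18, Cox8a and Ndufs8 among them, lie on chromosomes 9 and 19.

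Mitosis had the highest share of members higher in L-Myc. Of 48 genes, 30 were higher in L-Myc without overlap (62.5%) and 2 higher in N-Myc, at a median of 0.33, and 0.25 between C-Myc 2 and C-Myc 1. The largest differences were in Ccnb2, the cyclin B2 gene (11.82 and 11.57 against 10.21 and 10.22), Spc24, a kinetochore gene (10.44 and 10.39 against 9.02 and 9.11), and Kif20b, a kinesin gene (10.26 and 10.03 against 8.74 and 9.12). These 3, and every other separated member of the list, lie on chromosomes 9 and 19. Among the 40 members elsewhere 22 were higher in L-Myc and 2 in N-Myc, at a median of 0.30. DNA replication genes had no such lean, with 13 of 54 higher in L-Myc and 14 in N-Myc. Of the CDK inhibitors, Cdkn1a, which encodes p21, read 11.52 and 10.58 against 9.63 and 9.38, and Cdkn1c, which encodes p57, 8.67 and 10.03 against 7.81 and 7.73. Both were higher in L-Myc, and in each the L-Myc arrays lay further from each other than the N-Myc arrays did.

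Interferon response and antigen presentation genes had 16 of 37 higher in L-Myc without overlap and 8 higher in N-Myc, and 8 of the 16 were separated. Ifit2, an interferon-induced gene on chromosome 19, read 8.92 and 8.73 in L-Myc, 5.03 and 5.17 in N-Myc and 8.67, 8.92 and 8.74 in preSC. The immunoproteasome subunit genes Psmb8 (8.10 and 8.80 against 5.44 and 5.59) and Psmb9 (7.29 and 8.03 against 5.92 and 6.08), and H2-M3, a nonclassical class I histocompatibility gene (8.13 and 8.24 against 6.03 and 5.97), were highest in preSC, lower in L-Myc and lowest in N-Myc. Ifih1, encoding the RNA sensor MDA5, read 8.58 and 8.96 against 7.10 and 7.53. C-Myc 1 was on the N-Myc side and C-Myc 2 on the L-Myc side in all 5. In limma without the C-Myc arrays, 8 of the 37 were called higher in L-Myc and 1 higher in N-Myc. Over all genes tested the shares called were 5.17% and 3.55%, and limma with all 9 arrays called 0 of the 37.

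The lysosome list did not lean as a whole, with 12 of 49 higher in L-Myc and 13 in N-Myc, but its 6 separated members were all higher in L-Myc. Besides Ctsz they include the cathepsin genes Ctsc (a difference of 3.49) and Ctso (7.56 and 8.34 against 5.27 and 5.97). Hexa, the hexosaminidase A gene on chromosome 9, read 9.79 and 9.34 against 8.32 and 8.59. Endoplasmic reticulum chaperones had 12 of 27 higher in L-Myc and 1 in N-Myc at a median of 0.10, and none of the 27 was separated.

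Neuroendocrine granule and peptide genes had 14 of 33 higher in L-Myc without overlap and 7 in N-Myc. Cartpt, the gene for the CART neuropeptide precursor, read 10.25 and 10.42 in L-Myc, 6.48 and 6.45 in N-Myc and 7.10, 8.07 and 8.64 in preSC. Resp18, a granule protein gene, read 10.48 and 11.32 against 9.26 and 9.67. The other direction was taken by Tph1, given above, and by Vgf, a neuropeptide precursor gene (5.49 and 5.98 against 7.52 and 7.50). Of the 13 tested neuroendocrine markers, 8 were higher in L-Myc without overlap (61.5%), 2 of them separated, and 2 were higher in N-Myc. Chga, encoding chromogranin A, read 10.21 and 10.15 against 9.71 and 9.61, and Syp, encoding synaptophysin, 8.68 and 8.74 against 8.87 and 9.04. Ncam1, a neural adhesion gene on chromosome 9, read 10.70 and 9.82 against 9.26 and 9.17. Synaptic vesicle genes had 12 of 32 higher in L-Myc, among them Syt1, the synaptotagmin 1 gene (10.52 and 10.45 against 9.21 and 9.12), and 5 higher in N-Myc.

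Neural adhesion and guidance genes had 27 of 71 higher in L-Myc without overlap and 15 in N-Myc, and 13 against 3 were separated. Over all genes tested 4.9% and 3.05% were separated in these directions. Of the 27, 8 lie on chromosomes 9 and 19, and of the 13, 4 do. After Alcam and Chl1 came Cntn3, a contactin gene (9.81 and 9.66 against 6.56 and 6.86), and Sema3a, a secreted guidance cue (8.39 and 7.42 against 5.84 and 5.76). Among cadherins and protocadherins 7 of 25 were higher in L-Myc and 1 in N-Myc. Pcdh10 read 9.33 and 8.18 against 4.79 and 5.29 and Cdh8 5.98 and 6.78 against 4.17 and 3.99. The Notch ligand gene Dll3, a known surface protein of small cell lung cancer, read 9.59 and 9.20 in L-Myc, 7.30 and 7.02 in N-Myc and 9.66, 9.45 and 9.76 in preSC. C-Myc 1 read 7.42, by the N-Myc arrays, and C-Myc 2 read 9.17, by the L-Myc arrays. In limma without these C-Myc arrays the adjusted p of Dll3 was 0.00392, and it did not pass with all 9 arrays. The Notch list as a whole had 7 of 29 higher in L-Myc and 8 in N-Myc.

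Growth factor signalling leaned to N-Myc, with 17 of 39 genes of the IGF, FGF and EGF list higher there without overlap and 2 higher in L-Myc. Igfbp7, encoding an insulin-like growth factor binding protein, read 5.69 and 6.86 in L-Myc, 9.36 and 9.54 in N-Myc and 8.74, 9.10 and 9.42 in preSC. Igf2 itself read 8.19 and 10.47 against 12.08 and 11.67, with the L-Myc arrays more than 2 apart. Ntrk2, the TrkB receptor gene, read 6.81 and 6.54 against 9.21 and 9.06, and Tgfa, a ligand of the EGF receptor, 6.70 and 7.26 against 8.55 and 8.44. Grb10, an adaptor that restrains insulin and IGF signalling and an imprinted gene, was higher in L-Myc (10.49 and 10.40 against 7.29 and 6.90). Hgf, the hepatocyte growth factor gene, was also higher in L-Myc (6.92 and 8.09 against 5.19 and 5.61).

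Immediate early genes had 17 of 33 higher in N-Myc without overlap and 1 higher in L-Myc, at a median of -0.36. The median between C-Myc 2 and C-Myc 1 was small, at -0.06. Fos read 10.85 and 11.32 in L-Myc and 12.13 and 12.00 in N-Myc, with C-Myc at 11.44 and 11.25. Fosb read 7.70 and 8.07 against 9.09 and 8.80, with C-Myc at 8.21 and 7.97. For these AP-1 subunit genes the C-Myc arrays lay close to L-Myc. Nr4a2 (5.97 and 6.04 against 7.38 and 7.21) and Klf4 (6.00 and 5.39 against 6.98 and 6.93), both inducible transcription factor genes, had C-Myc 1 on the N-Myc side. Of 13 tested iron handling genes 8 were higher in N-Myc and 3 in L-Myc. Tfrc, the transferrin receptor gene, read 12.22 and 12.35 against 13.17 and 13.26, and Hmox1, encoding heme oxygenase 1, 7.10 and 6.80 against 8.56 and 8.56.

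The epithelial junction and identity list had the lowest median of any list, -0.69, but it rested on 1 array. Relative to the N-Myc mean its median was -1.51 in L-Myc 1 and 0.08 in L-Myc 2. Between C-Myc 2 and C-Myc 1 the median was 0.41, in the other direction. Of 43 genes, 12 were higher in N-Myc without overlap, 1 was higher in L-Myc and 30 overlapped. Dsp, the desmoplakin gene, read 5.18 and 10.06 against 10.49 and 10.32, and Marveld3, a tight junction gene, 4.54 and 7.57 against 8.66 and 8.80. Cdh1, encoding E-cadherin, read 9.38 and 11.31 against 11.06 and 11.39 and overlapped. Ovol2, a transcription factor of the epithelial state, was lower in both L-Myc arrays (5.57 and 6.21 against 7.09 and 7.40).

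Among the other members of the MYC network, Mlxipl, the gene for the glucose-responsive factor ChREBP, read 7.15 and 8.21 in L-Myc and 5.48 and 5.47 in N-Myc, and Mxi1, a MAX partner that opposes MYC, 10.74 and 10.47 against 9.93 and 9.91. Max itself was a little higher in N-Myc (7.40 and 7.45 against 7.82 and 7.69). Odc1, the ornithine decarboxylase gene and a classical MYC target, read 11.49 and 11.75 against 12.15 and 12.14, and preSC lay below both groups at 11.02, 10.94 and 10.84. Of 26 tested network genes, 12 were higher in N-Myc without overlap and 7 in L-Myc, and 2 of these 7 lie on chromosomes 9 and 19. The median was -0.20, and -0.36 between C-Myc 2 and C-Myc 1.

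Transcription factors of neuroendocrine and lung cells had no lean, with 9 of 34 higher in L-Myc without overlap and 10 in N-Myc. Gfi1, a neuroendocrine zinc finger gene, read 10.07 and 9.78 against 8.28 and 8.33. Yap1, the Hippo pathway coactivator gene, was higher in N-Myc (5.07 and 5.47 against 6.36 and 6.28). Nkx2-1, encoding the lung lineage factor TTF-1, overlapped (8.41 and 8.27 against 8.65 and 8.30), although all 6 transduced arrays lay above preSC (5.73, 6.06 and 5.70). The mesenchymal list had 7 of 22 higher in L-Myc and 5 in N-Myc, and its 4 separated members were all higher in L-Myc: Cald1, Tpm2, Fn1 and Zeb1. Fn1, the fibronectin gene, read 6.63 and 7.87 against 6.25 and 5.63, and Zeb1, a repressor of the epithelial state, 10.57 and 9.71 against 9.12 and 9.05.

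Single genes with large differences stood in lists that did not lean. Fst, encoding the activin antagonist follistatin, read 5.98 and 9.34 against 4.24 and 4.59, with C-Myc 2 at 9.21, so that L-Myc 2 and C-Myc 2 were the high arrays. The potassium channel gene Kcnd2 read 8.56 and 8.37 against 5.40 and 5.86, and the integrin gene Itgb8 4.16 and 7.06 against 3.42 and 3.42. Wfdc2, a whey acidic protein family gene, read 8.59 and 11.13 against 4.67 and 4.70, and Neat1, the noncoding RNA of paraspeckles, 8.66 and 8.99 against 6.31 and 6.31, although the next probe set of Neat1 differed by -0.066. The imprinted gene Mest was higher in N-Myc (7.29 and 7.03 against 9.55 and 9.75), as was Epas1, the gene for the hypoxia factor HIF-2 alpha (4.79 and 5.87 against 6.93 and 6.67).

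**Figure D5:**
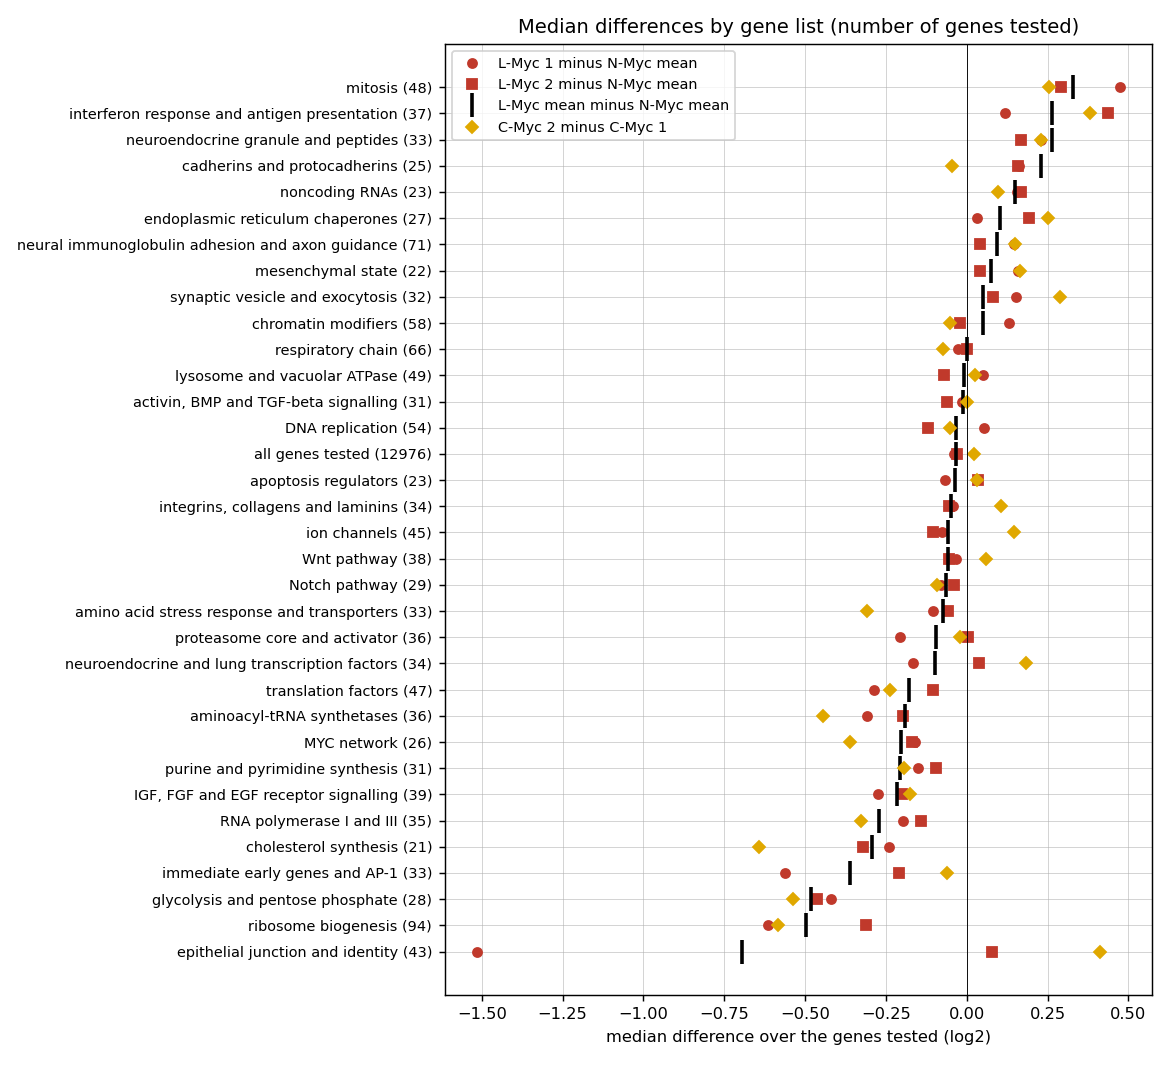
Median log2 difference (horizontal axis) over the tested genes of each list of 20 or more tested genes with at least 80% of the list measured, with the number tested in brackets. Red symbols are L-Myc 1 and L-Myc 2, each minus the N-Myc mean, black bars the L-Myc mean minus the N-Myc mean, and yellow diamonds C-Myc 2 minus C-Myc 1. Mitosis (0.33) stands at the top, ribosome biogenesis (-0.50) and glycolysis (-0.48) near the bottom, and the epithelial list has its 2 L-Myc arrays on either side of 0.

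The near pairs of arrays with different labels differed at few genes. L-Myc 2 and C-Myc 2 differed more than 2-fold at 41 probe sets, 21 higher and 20 lower in L-Myc 2. Mycl was higher by 4.23 in L-Myc 2 and Myc lower by 3.40, as the labels say. Neurod1, a neuroendocrine transcription factor gene, was higher by 1.88 and 1.66 on its 2 probe sets, Neurog3 by 1.22 and 1.16, and Nkx6-1 by 1.24. L-Myc 1 did not share the Neurod1 and Neurog3 levels. It read 3.71 and 3.69 for Neurod1 and 3.80 and 5.31 for Neurog3, below both C-Myc arrays. For Nkx6-1 it read 6.38, above C-Myc at 5.26 and 6.29. On the other side, at 99 probe sets each of the 2 N-Myc arrays was more than 2-fold from C-Myc 1. That rule is stricter than the count for a single pair, which was 194 with N-Myc 1 and 182 with N-Myc 2. The differences that follow are from the N-Myc mean. Mycn led the 99, higher in N-Myc by 2.92 on its dimmest probe set and lower by 2.19 on its brightest. The keratin genes Krt18 (1.38) and Krt8 (1.31) were higher in N-Myc, and Zic5, a zinc finger gene, lower by 2.19. L-Myc 2 and C-Myc 2 are single arrays on both sides, and C-Myc 1 is a single array on 1 side, so neither comparison is replicated.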

How the data were processed

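RNA of cultured cells was measured on 9 mouse Affymetrix arrays of 1 colour. The deposited values are log2 expression per probe set, and RMA in the affy package under R 3.0.1 is named per the submitters' processing notes. No scanner files were used here. Of 45101 probe sets, 34945 carried 1 gene by the platform annotation, and each of 18193 genes was read by its brightest probe set. The 12976 genes above the 40th percentile of an array in at least 2 of 9 arrays were tested with limma 3.58.1 in R 4.3.3, on all 9 arrays with a mean for each of 4 groups, with Benjamini-Hochberg adjustment over all genes tested and a threshold of 0.05. The fit was tested on simulated data. The members and the gene lists were chosen with earlier results of these data known. Named genes were the MYC genes, Pvt1, Rb1 and Rbl2, the 10 widest gaps a direction and the largest differences of a list, and others are marked as chosen after their values were seen. The number of arrays, 2 a group, limits the precision. Promoter sequences are from RefSeq on GRCm38.p6.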

Additional observations from a re-analysis of the deposited data

Results flagged for a closer look

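Some genes named above moved in opposite directions from preSC in the L-Myc and the N-Myc group: both L-Myc arrays lay beyond all 3 preSC arrays on one side and both N-Myc arrays beyond them on the other. preSC also differed from all transduced arrays in the control probe sets, as given above, and the part of that in these directions was not tested. The difference between the groups did not pass the 9-array limma test for any of them. Higher in L-Myc than in N-Myc, with the L-Myc arrays above preSC and the N-Myc arrays below, were Lipo3 (difference 4.69 on the log2 scale), Manea (4.43), Slc6a15 (4.36), Cartpt (3.87), Grb10 (3.35), Fst (3.24), Plod2 (2.51), Cald1 (1.97) and Ndufs8 (0.78). Slc6a15 was 1.19 above preSC in L-Myc and 3.17 below in N-Myc, and Cartpt 2.40 above and 1.47 below.

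The opposite order, with N-Myc above preSC and L-Myc below, held for Lratd2 (-4.09), Pde11a (-2.86), Mest (-2.49), Ntrk2 (-2.46), Vgf (-1.77), Pgd (-1.71), Aldoa (-1.61), Nr4a2 (-1.29) and Heatr1 (-1.20). Lratd2, the neighbour of Myc, was 2.35 above preSC in N-Myc and 1.74 below in L-Myc. Over all tested genes, 33 passed the threshold in limma without the C-Myc arrays for L-Myc against N-Myc and for each group against preSC with opposite signs, and 0 did so with all 9 arrays. Groups of 2 and 3 arrays are too small for an outlier test of single arrays.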

How the results depend on the processing

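The count of called genes was the result that depended most on the processing. It was 0 with all 9 arrays, 670 with array weights (420 higher in L-Myc, 250 higher in N-Myc, 484 at least 2-fold), 241 on the 4 arrays alone (162, 79 and 241) and 1131 without the C-Myc arrays (671, 460 and 605), an alternative chosen after seeing the data. Of the 1131, 626 were among the 670 and 234 among the 241. Leaving out any 1 preSC array gave 0 called genes. Leaving out either C-Myc array alone repeats the fit without both, because a single array left in a group adds nothing to the spread. Replicate numbers 1 and 2 are shared between groups, but same-numbered arrays are not said to be paired, and with the number as a block limma called 0 genes, with 2694 at an unadjusted p under 0.05 against 2432 without the block. The genes without overlap numbered 7162, and 3544 with the second-brightest probe set, which only 6384 genes have, where 308 were separated in favour of L-Myc and 169 in favour of N-Myc. Leaving out 1 array gave 7162 to 10886 of them, 636 to 842 separated in favour of L-Myc and 396 to 614 in favour of N-Myc. Of 122 genes named in the text that were followed under the alternatives, 115 kept the direction of their difference under every alternative that gave them a value. All 23 alternatives did so for 62 genes, and 19 to 22 for the other 60, which for example have no second probe set or miss a stricter filter. With the second-brightest probe set Fbln1 turned to -0.054 and Neat1 to -0.066. Leaving out 1 array gave -1.84 to 0.092 for Cdh1, -3.17 to 0.084 for Krt18, -3.01 to 0.11 for Krt8 and -2.92 to 1.26 for Neurog3, each turned by L-Myc 1, and -0.31 to 0.043 for Nkx2-1, turned by N-Myc 1. The lean of the mitosis and ribosome biogenesis lists and the medians of chromosomes 9 and 19 kept their direction. In the epithelial list the median was 0.08 without L-Myc 1.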
